A study of Mus musculus with 4 samples.

Results

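Trem2 and a set of other macrophage genes were followed in normal ureter and ureter tumors of mice. The set named 10 genes: Trem2, Tyrobp, Csf1r, Ms4a7, Mpeg1, Cd68, Gpnmb, Lgals3, Apoe and Spp1. Its members were the probe sets that the platform annotation assigns to 1 of these genes, and 9 of the 10 genes had such a probe set, 14 probe sets in all, out of 18193 genes with one. Spp1, which encodes the secreted glycoprotein osteopontin, was assigned no probe set by the annotation used here and is not analysed here. The members were chosen by their signals in tumor against normal ureter, which were already known, so those values are given as a description and not as a test.

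RNA came from C57Bl/6 mice aged 6 to 8 weeks whose ureter epithelium had been isolated, in a study of Notch signaling in urothelial cancer. Genes of other tissues were bright on some arrays all the same. The fat cell gene Ucp1 gave signals of 19660 and 21580 in normal ureter against 3.15 and 3.41 in tumor. The kidney tubule gene Umod gave 4997 and 9982 in normal ureter against 1268 and 57258 in tumor. The values are therefore not read as those of pure epithelium. The groups were normal ureter (n = 2) and ureter tumor (n = 2), with 1 Affymetrix mouse array for each sample. The treatment text, which is the same for all 4 samples, describes R26rtTA, teto-Cre and Ncstnf/f alleles and doxycycline given for 1 week from the age of 3 weeks. R26 denotes the Rosa26 locus, which is active in most cell types, so Cre in such a system is not limited to urothelium, and Ncstn encodes a subunit of the gamma-secretase that cleaves Notch receptors. The sources used here give neither the genotype of each sample nor whether animals were pooled. The labels call the samples of each group biological replicates but name no animals. A p-value here sets a difference against the spread of these samples, combined with a variance drawn from all genes tested. It reaches no further than these samples.

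Macrophages are phagocytes of tissues that depend on signals through Csf1r, the receptor of colony stimulating factor 1. Trem2 is a surface receptor of macrophages that binds lipids and lipoproteins, and it signals through the adaptor Tyrobp, also called DAP12, which recruits the kinase Syk. In fat, atherosclerotic plaques and tumors, Trem2 is known from macrophages that take up lipid and express Gpnmb, Spp1, Lgals3, Apoe and Cd9. Several of these genes are not limited to macrophages: Apoe is also made by fat cells and Lgals3 by epithelia.

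The stretches of 250 bases before the start sites of 3 members are shown. Of the members searched, only these had AP-1 letters, described next, before the start. They are from RefSeq on GRCm38.p6, 5′ to 3′ on the strand of the gene, with capitals marking the motifs. The motif GAGGAA is the core bound by PU.1, the factor that directs macrophage development, and TGANTCA is the site of AP-1 factors.
Trem2, chr17:48346151-48346400, plus strand: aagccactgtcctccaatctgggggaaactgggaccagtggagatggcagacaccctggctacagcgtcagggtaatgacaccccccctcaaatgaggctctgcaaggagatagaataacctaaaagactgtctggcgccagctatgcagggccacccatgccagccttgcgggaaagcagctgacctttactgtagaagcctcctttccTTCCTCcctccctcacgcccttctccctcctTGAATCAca
Cd68, chr11:69666171-69666420, minus strand: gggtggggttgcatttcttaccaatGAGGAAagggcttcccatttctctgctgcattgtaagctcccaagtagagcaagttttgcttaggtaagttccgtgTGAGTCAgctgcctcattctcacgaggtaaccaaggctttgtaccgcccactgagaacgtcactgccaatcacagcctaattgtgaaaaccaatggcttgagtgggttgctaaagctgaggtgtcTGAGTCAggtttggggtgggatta
Ms4a7, chr19:11334696-11334945, minus strand, the second of 2 start sites: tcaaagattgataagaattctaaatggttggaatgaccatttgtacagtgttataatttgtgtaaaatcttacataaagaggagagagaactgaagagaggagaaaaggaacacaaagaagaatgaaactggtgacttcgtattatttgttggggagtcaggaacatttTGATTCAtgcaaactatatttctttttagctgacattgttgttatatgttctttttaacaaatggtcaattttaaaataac
Both strands of windows of 300 bases, from 250 before to 50 after a start, were searched. The search of members covered 12 RefSeq windows of 8 of the 10 genes. Tyrobp and Csf1r were left out of it, so nothing is known here about their motifs. AP-1 letters were in 4 of the 12 windows, those of Trem2, Cd68, Gpnmb (after the start) and 1 of Ms4a7, and in 7.8% of all 32851 windows. PU.1 letters were in 6 of the 12, and in 28.3% of all windows. The E-box TCACGTG, bound by Mitf and Tfe factors, was in 0 of the 12 and in 3.8% of all windows. Windows of the same gene lie close together, and these counts describe letters, not binding.

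Values are MAS5 signals, a linear measure of brightness per probe set that the authors scaled to a trimmed mean of 500 on each array. Differences are tumor minus normal on the scale of log2(signal + 16), where changes of dim genes come out too small. For each gene the brightest probe set was read, and 13046 genes were tested together with limma. These were the genes whose mean of log2(signal + 16) over the 4 arrays reached that of a signal of 54.6, so a gene bright on 1 array only could stay under the filter. A gene counted as past the test at a Benjamini-Hochberg adjusted p under 0.05. The normal arrays were alike (Pearson's r = 0.976 across genes) and the tumor arrays less so (r = 0.786), and genes are not independent replicates. The ratio of 3' to 5' signal of Gapdh, a sign of RNA quality, was 0.920 and 0.923 in normal ureter against 1.51 and 1.44 in tumor. For Actb it was 2.90 and 2.82 against 2.47 and 2.63.

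Trem2 was near the bottom of the signal range in normal ureter and well up in it in both tumors. Probe set 1421792_s_at gave 7.58 and 8.99 in normal ureter against 290 and 271 in tumor. The groups did not overlap, and within each group the arrays lay within 1.2-fold of each other. In rank, Trem2 moved from above 12.9% and 14.3% of probe sets on the normal arrays to above 68.1% and 66.4% on the tumor arrays. The difference was 3.61 (SE 0.35, n = 2 in each group). Since the normal signal of 8.28 ± 0.999 (SD, n = 2) lay under the filter of 54.6, the size of the difference follows the pseudocount: it was 4.92 with 1 and 2.25 with 64. Trem2 was the only member with a normal mean under the filter and passed it through the tumor arrays. The other Trem2 probe set, 1421226_at, gave 30.7 and 27.1 in normal ureter against 60.05 and 4.45 in tumor. On that probe set the tumor arrays lay on opposite sides of the normal ones. The suffix of 1421792_s_at marks probes shared between transcripts.

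Tyrobp, the adaptor through which Trem2 and several other myeloid receptors signal, was higher in both tumors. Its signal was 1180 and 948 in normal ureter against 7517 and 4407 in tumor. The groups did not overlap, and tumor replicate 1 was 1.71 times tumor replicate 2. The difference was 2.43 (SE 0.33, n = 2 in each group), a ratio of mean signals of 5.60.

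The genes of macrophage identity were higher by similar amounts. Csf1r, the receptor tyrosine kinase on which macrophages depend, gave 4415 and 3949 in normal ureter against 17035 and 15523 in tumor (1419872_at). The tumors lay within 1.10-fold of each other, 3.89-fold above the normal mean, and the difference was 1.96 (SE 0.19, n = 2 in each group). Its other probe sets, 1419873_s_at and 1423593_a_at, had differences of 2.08 and 1.501.

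Ms4a7, a tetraspan membrane protein of macrophages, gave 331 and 248 in normal ureter against 1943 and 1778 in tumor (1424754_at). Its difference was 2.63 (SE 0.24, n = 2 in each group), a ratio of 6.42. The dimmer probe set 1445365_at pointed the same way, from 10.5 and 3.49 to 46.8 and 45.2, all under the filter. Mpeg1, which encodes perforin-2, a pore-forming protein that kills engulfed bacteria, had the most even tumors of all members. Its signal was 632 and 789 in normal ureter against 3458 and 3445 in tumor, with a difference of 2.26 (SE 0.20, n = 2 in each group). Cd68, a glycoprotein of macrophage lysosomes, gave 390 and 219 in normal ureter against 1474 and 1126 in tumor. The normal arrays were further apart here, at 1.78-fold, and the difference was 2.08 (SE 0.36, n = 2 in each group).

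The genes shared by lipid-laden macrophages and other cells did not move as a unit. Gpnmb, a transmembrane glycoprotein induced in phagocytes with full lysosomes and also made by melanocytes, gave 87.5 and 185 in normal ureter against 1344 and 707 in tumor (1448303_at). Both tumors were above both normal arrays, with a difference of 2.78 (SE 0.52, n = 2 in each group), and the arrays of each group differed by about as much as each other, 2.12-fold in normal ureter and 1.90-fold in tumors. Its other probe set, 1439345_at, ran from 1.75 to 48.4 with overlapping groups, under the filter. Of 6 melanocyte genes 5 were under the filter, among them Dct, which gave 139 and 185 in normal ureter against 1.71 and 11.6 in tumor, and Pmel, the remaining 1, gave 43.0 and 100.1 in normal ureter against 58.9 and 43.7 in tumor.

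Lgals3, which encodes the sugar-binding protein galectin-3, gave 7183 and 9418 in normal ureter against 19575 and 10630 in tumor. The groups did not overlap, but tumor replicate 2 was only slightly above normal replicate 2, with per-array differences of 1.25 and 0.37. Lgals3 is abundant in epithelia, and the summed signal of 14 urothelial genes was 90457 and 138771 in normal ureter against 97676 and 48435 in tumor. That sum mixes uroplakins, which were lower in both tumors, with the general epithelial genes Epcam and Cdh1, which were 3.66-fold and 1.82-fold higher by mean signal. The part of epithelium in the Lgals3 values was not tested.

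Apoe, the lipid carrier that is also a ligand of Trem2, was the only member lower in the tumors. Its signal was 19500 and 17503 in normal ureter against 12920 and 10304 in tumor, without overlap. The normal mean was 1.59 times the tumor mean, and the difference was -0.68 (SE 0.23, n = 2 in each group). Fat cell genes were lower too: 8 of 8 tested lay below both normal arrays on both tumor arrays, where 27.7% of all genes tested did, and their summed signal was 264512 and 282674 in normal ureter against 38676 and 6359 in tumor. In the limma fit 2 of the 8 fell, where 0.943% of all genes fell. They were Ucp1 and Pparg, with differences of -10.1 and -4.85 (limma adjusted p = 0.00863 and 0.0425). With the replicate number as a block no gene passed. The part of fat cells in the Apoe values was not tested.

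**Figure D1:**
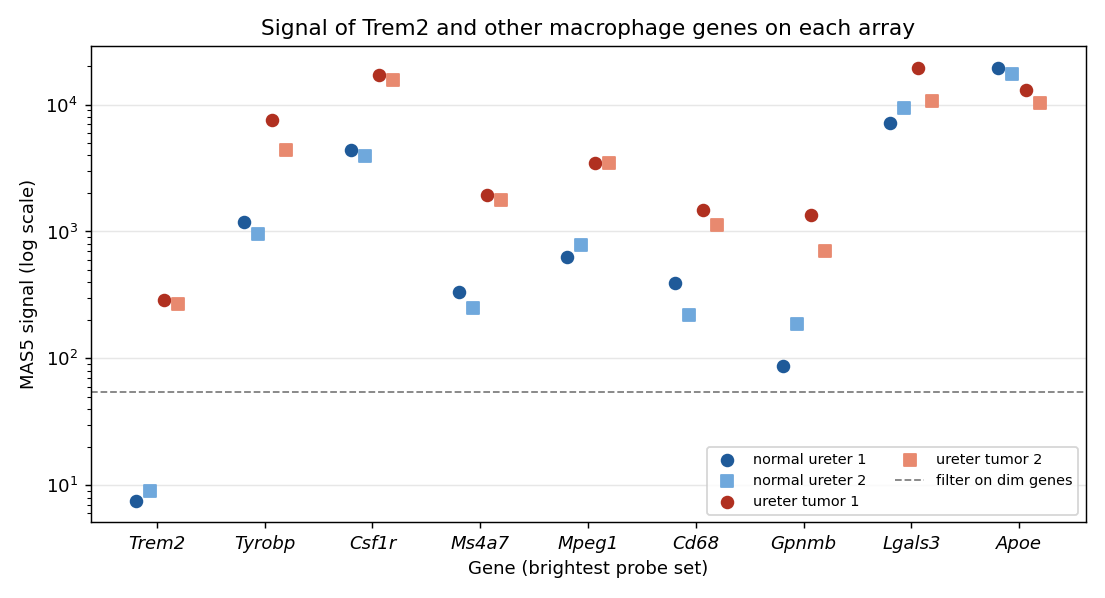
MAS5 signal on a log axis for the brightest probe set of each of 9 genes, with 1 point per array and the filter on dim genes dashed. Both tumor arrays lie above both normal arrays for 8 genes and below them for Apoe, and the normal arrays of Trem2 are under the filter.

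Across the 14 probe sets, 11 had each tumor array above each normal array. The exceptions were Apoe, lower in both tumors, and the dimmer probe sets of Trem2 and Gpnmb, whose groups overlapped. Among the brightest probe sets, 8 of 9 members were higher in both tumors and 1 was lower. Over all genes tested 29.4% were higher in both tumors and 27.7% lower, 57.1% without overlap in all, and nothing is read from these counts because the contrast was known when the genes were chosen. For reference only, since the members were chosen on this contrast, 4 of the 9 were past the threshold in the fit over all genes, Trem2, Csf1r, Ms4a7 and Mpeg1, all higher. Over all genes 0.491% were higher and past it and 1.43% were past it in either direction, and nothing is read from this count either. Trem2 entered the fit only through its tumor arrays. Tyrobp, Cd68, Gpnmb, Lgals3 and Apoe were not past the threshold. The median difference of the 9 was 2.26, beside 0.03 over all genes tested. Trem2 was no longer past the threshold with a pseudocount of 1, no filter, each array centred on its median, no intensity trend in the prior variance, or without normal replicate 1 or normal replicate 2. It was not among the genes tested with a filter at the 60th percentile or with the mean of all probe sets of a gene. The count of 4 was 0 with median centring or with no intensity trend, and 2 with no filter or with the mean of probe sets. It was 0 without normal replicate 1 or normal replicate 2. Without tumor replicate 1 or tumor replicate 2 it was 8 and 9, in fits where the lone tumor array is assumed to vary as little as the normal arrays and 4298 and 5502 genes pass. The median over the 4 fits was 2.30, 2.27, 2.04 and 2.27.

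**Figure D2:**
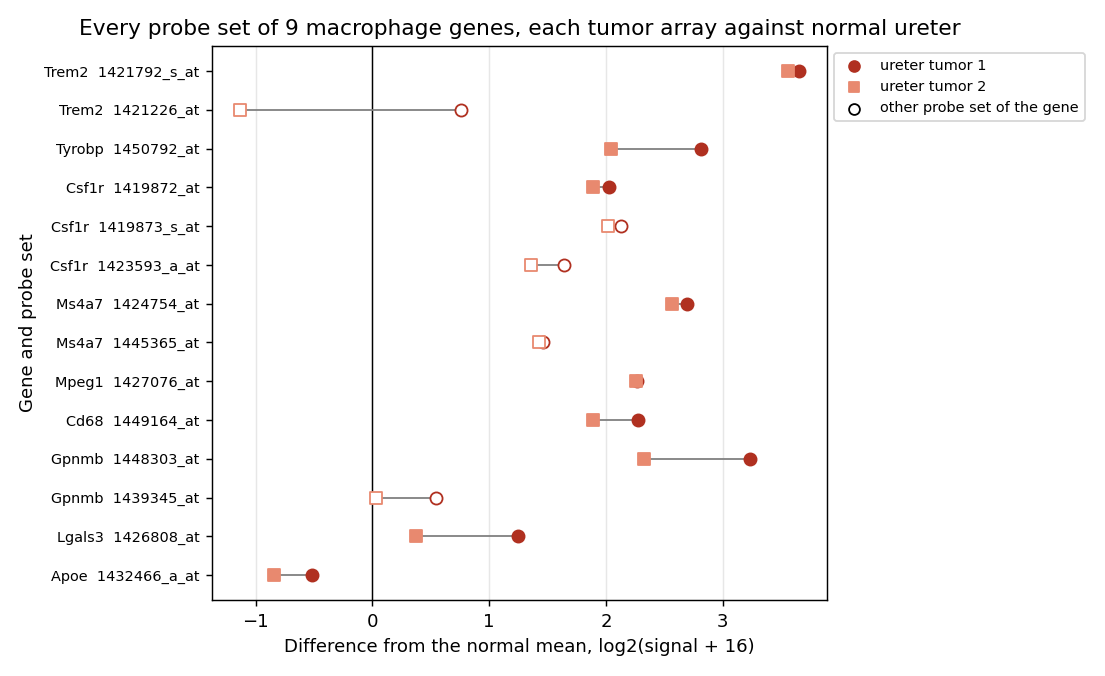
Difference of each tumor array from the mean of the normal arrays, log2(signal + 16), for all 14 probe sets of the 9 genes, with filled symbols for the probe set read for the gene. Csf1r, Ms4a7 and Mpeg1 have tumor arrays close together, and the second Trem2 probe set runs from 0.76 to -1.13.

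In order of difference the members ran Trem2 3.61, Gpnmb 2.78, Ms4a7 2.63, Tyrobp 2.43, Mpeg1 2.26, Cd68 2.08, Csf1r 1.96, Lgals3 0.81 and Apoe -0.68. From Gpnmb to Csf1r each step was smaller than the SE of either neighbour, so that order is not resolved. The gap from Csf1r to Lgals3 and from Lgals3 to Apoe exceeded the SE of both. Trem2 stood first in 12 of the 13 settings in which it was tested, and with a pseudocount of 64 it stood behind Ms4a7, Gpnmb and Tyrobp. The 12 are not separate results. Settings that change only the filter, the prior variance or the block leave the differences as they were. Median centring shifts all members alike.

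The tumors differed in how evenly they carried these genes. All 9 members were higher on tumor replicate 1 than on tumor replicate 2, from 1.00-fold for Mpeg1 to 1.90-fold for Gpnmb. Trem2, Csf1r, Ms4a7 and Mpeg1 lay within 1.2-fold, 4 of the 9 members, as did 31.7% of the 11831 genes tested that were at or above the filter on both tumor arrays. Tyrobp, Gpnmb and Lgals3 lay at 1.71, 1.90 and 1.84, above the median of 1.36 over those genes. In bulk tissue, a change in the number of macrophages and a change in RNA per macrophage cannot be told apart.

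Other genes that macrophages share were higher along with the members. In a list of 20 pan-macrophage genes, 19 were higher in both tumors than in both normal arrays, beside 29.4% of all genes, and the median difference was 2.10. In the limma fit 1 of 20 rose, 0 fell and 19 did not pass, where 0.491% of all genes rose and 0.943% fell. The list was chosen with earlier results of these data known, so these counts are a description. C1qb, a chain of the first complement component, rose by 2.65 (SE 0.20, n = 2 in each group, limma adjusted p = 0.0402), from 1108 and 996 to 7385 and 6049. Cybb, the catalytic subunit of the phagocyte oxidase, had a difference of 2.71, Cx3cr1, the fractalkine receptor, 4.55 and Cd14, the co-receptor for endotoxin, 2.54 (limma adjusted p = 0.0505, 0.0511 and 0.0568). Cx3cr1 gave 59.1 and 17.3 in normal ureter, a mean of 38.2 under the filter. Like Trem2 it entered the fit through its tumor arrays, and the size of its difference depends on the pseudocount. Lyz2, a lysozyme and the brightest of the list, had a difference of 1.31. Mertk, an engulfment receptor named after its values were seen as the only gene with overlapping groups, had -0.07. The call of C1qb ended with median centring, with no intensity trend and without normal replicate 1 or normal replicate 2, and 18 and 20 of the list passed without tumor replicate 1 and tumor replicate 2, in the same fits with a lone tumor array.

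Set against the mean of these 20 genes, which was higher by 2.11, the members separated. Trem2 was 1.498 above it (1.26 and 1.74 on tumor replicates 1 and 2), and Gpnmb, Ms4a7 and Tyrobp were 0.67, 0.52 and 0.32 above it. The normal arrays of Gpnmb lay 0.60 to either side of their own mean on this scale, nearly as far as its excess. For Ms4a7 and Tyrobp they lay 0.08 and 0.04 to either side. Mpeg1, Cd68 and Csf1r followed the list mean closely, at 0.15, -0.03 and -0.15, and each lay on opposite sides of it in the tumor arrays. Lgals3 and Apoe were at -1.30 and -2.79 from the list mean. That mean was higher by 2.40 on tumor replicate 1 and by 1.82 on tumor replicate 2. Ptprc, Laptm5, Itgb2 and Cd53 in the list are expressed by other leukocytes too. The part of other leukocytes in the list mean was not tested. The excess of Trem2 was 2.73 with a pseudocount of 1 and 0.32 with 64, so its size is not settled by these signals. Only Cx3cr1 among the 20 had a larger difference than Trem2, and its normal mean was under the filter too.

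**Figure D3:**
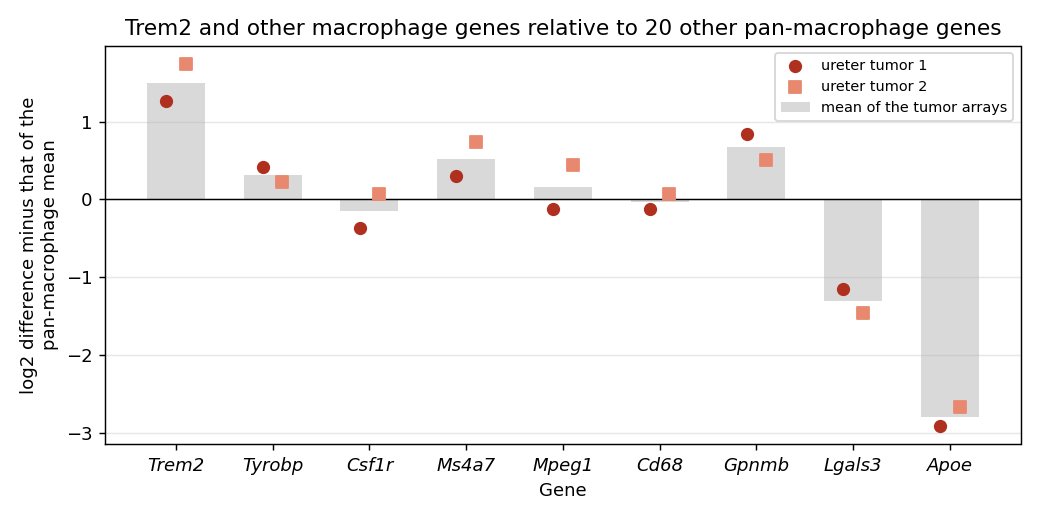
Difference of each gene minus the mean difference of 20 other pan-macrophage genes, log2(signal + 16), with bars for the mean of the tumor arrays and 1 point per tumor array. Trem2 is above 0 on both tumor arrays, Csf1r, Mpeg1 and Cd68 straddle 0, and Lgals3 and Apoe are below 0.

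A list of Trem family receptors, related receptors, sheddases and Tyrobp signaling genes had 0 of its genes past the test. Of 16 tested genes 12 were higher in both tumors (29.4% of all genes), 0 were lower in both (27.7%), 4 overlapped, and the median difference was 1.54. In the limma fit 0 of 16 passed, with 8 at an unadjusted p under 0.05, beside 21.5% of all genes. Fcer1g, an adaptor related to Tyrobp in function, had a difference of 1.97 (SE 0.31, n = 2 in each group, limma adjusted p = 0.0807). Lat2, a scaffold of myeloid receptor signaling, had 2.20, Plcg2, the phospholipase downstream of Syk, 1.80 and the kinase Btk 2.46 (limma adjusted p = 0.103, 0.1296 and 0.165). The normal means of Lat2 and Btk, 43.9 and 54.56, were under the filter, so these genes entered the fit through their tumor arrays. Adam10, a protease that sheds Trem2 and the brightest of the list, had 14067 and 5555 in the tumors beside 5280 and 5788, with overlapping groups. Its difference was 0.68, and its 2 other bright probe sets had -1.11 and 0.35. All but 1 of the 16 were higher on tumor replicate 1 than on tumor replicate 2. Trem3, Treml1, Treml2, Treml4 and Clec5a were under the filter and not tested. Treml4, another receptor of the Trem locus, gave 7.20 and 5.04 in normal ureter against 85.8 and 80.5 in tumor.

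The factors around Csf1r gave a mixed picture. Of 14 tested ligands, cytokine receptors and lineage factors, 10 were higher in both tumors and 3 lower in both (29.4% and 27.7% of all genes), with a median of 0.97. In the limma fit 0 passed, with 5 at an unadjusted p under 0.05 (21.5% of all genes). Spi1, which encodes PU.1, gave 58.6 and 18.1 in normal ureter against 192 and 171 in tumor. Its normal mean of 38.4 was under the filter. The interferon regulatory factors Irf8 and Irf5 had differences of 1.78 and 1.58. Cebpa, a factor of both myeloid and fat cells, had -2.35 (limma adjusted p = 0.1003) and Cebpb, the brightest, -0.61. Csf1 and Il34 are the ligands of Csf1r and were named after their values were seen: Csf1 had a difference of 0.96 and Il34 gave 89.1 and 80.9 in normal ureter against 121 and 390 in tumor. The 3 other bright probe sets of Csf1 ran from 0.03 to 1.77.

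Relatives of Ms4a7 differed among themselves. Of 9 tested genes of the Ms4a family, other than Ms4a7, 6 were higher in both tumors and 1 was lower in both (29.4% and 27.7% of all genes), with a median of 1.73. In the limma fit 1 rose (0.491% of all genes) and 8 did not pass. Ms4a6b rose by 1.97 (SE 0.19, limma adjusted p = 0.0435, n = 2 in each group), from 513 and 516 to 2213 and 1911. Ms4a6d and Ms4a6c, of the same macrophage-rich branch, had differences of 3.13 and 1.62 (limma adjusted p = 0.0525 and 0.0661). Ms4a4c had 1.73, with 640 and 225 on the tumor arrays beside 142 and 75.0. The call of Ms4a6b ended with median centring, with no intensity trend, without normal replicate 1 or normal replicate 2, and with the mean of its probe sets.

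Genes used elsewhere to mark lipid-laden macrophages split in direction. Of 20 tested, 8 were higher in both tumors and 7 lower in both, beside 29.4% and 27.7% of all genes, and the median was 0.38. In the limma fit 0 rose, 4 fell and 16 did not pass, where 0.943% of all genes fell. The 4 were genes of fatty acid uptake and storage. Cd36, a fatty acid receptor, fell by 3.52 (SE 0.17, limma adjusted p = 0.0369, n = 2 in each group), from 23763 and 22338 to 2005 and 1977. Lpl, lipoprotein lipase and the brightest of the list, fell by 2.90, Fabp5, a fatty acid carrier, by 2.54 and Plin2, a coat protein of lipid droplets, by 2.50 (limma adjusted p = 0.0402, 0.0425 and 0.0487). Fat cells express Cd36, Lpl and Plin2 too, and the fat cell sums given with Apoe were lower in both tumors. The part of fat in these genes was not tested. Among the genes higher in both tumors, named after their values were seen, Ctss, a lysosomal protease, had a difference of 2.74, Clec7a, a receptor for fungal glucans, 2.98 and Itgax 2.19. Cst7, an inhibitor of lysosomal proteases, was under the filter with 3.59 and 3.81 in normal ureter against 582 and 65.6 in tumor. All 4 calls ended with no intensity trend and without normal replicate 1 or normal replicate 2, and all but that of Cd36 with median centring. The call of Plin2 also ended with a pseudocount of 1, quantile normalization, no filter and the mean of all probe sets.

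For markers of resident tissue macrophages, the share higher in both tumors was near that over all genes. The share lower in both tumors was smaller than over all genes. Of 12 tested, 3 were higher in both tumors, 1 was lower in both (29.4% and 27.7% of all genes) and 8 overlapped, with a median of 0.05. In the limma fit 0 passed, with 3 at an unadjusted p under 0.05 (21.5% of all genes), and the difference from the pan-macrophage list was not tested. Stab1, a scavenger receptor, had a difference of 1.52 (SE 0.25), Mrc1, the mannose receptor, 1.65 and Gas6, a bridging molecule for dying cells, 0.82, while Cd5l had -0.73 (limma adjusted p = 0.0813, 0.179, 0.227 and 0.306, n = 2 in each group). The other bright probe set of Gas6 had 0.07. Selenop, the brightest, had -0.07, or 0.09 under quantile normalization. Without tumor replicate 1 the median was -0.21. Of 7 monocyte genes 6 were higher in both tumors (29.4% of all genes), with a median of 1.59. Of these 0 passed in the limma fit, with 4 at an unadjusted p under 0.05 (21.5% of all genes). Ccr2, the receptor that guides monocytes into tissue, gave 340 and 385 in normal ureter against 1037 and 907 in tumor, although 1 of its other 2 bright probe sets had -0.94. Plac8 had 1.85 and Fn1, fibronectin and the brightest, 1.59. Chil3, a chitinase-like protein of macrophages, gave 26581 and 884 on the tumor arrays beside 18.6 and 70.7.

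**Figure D4:**
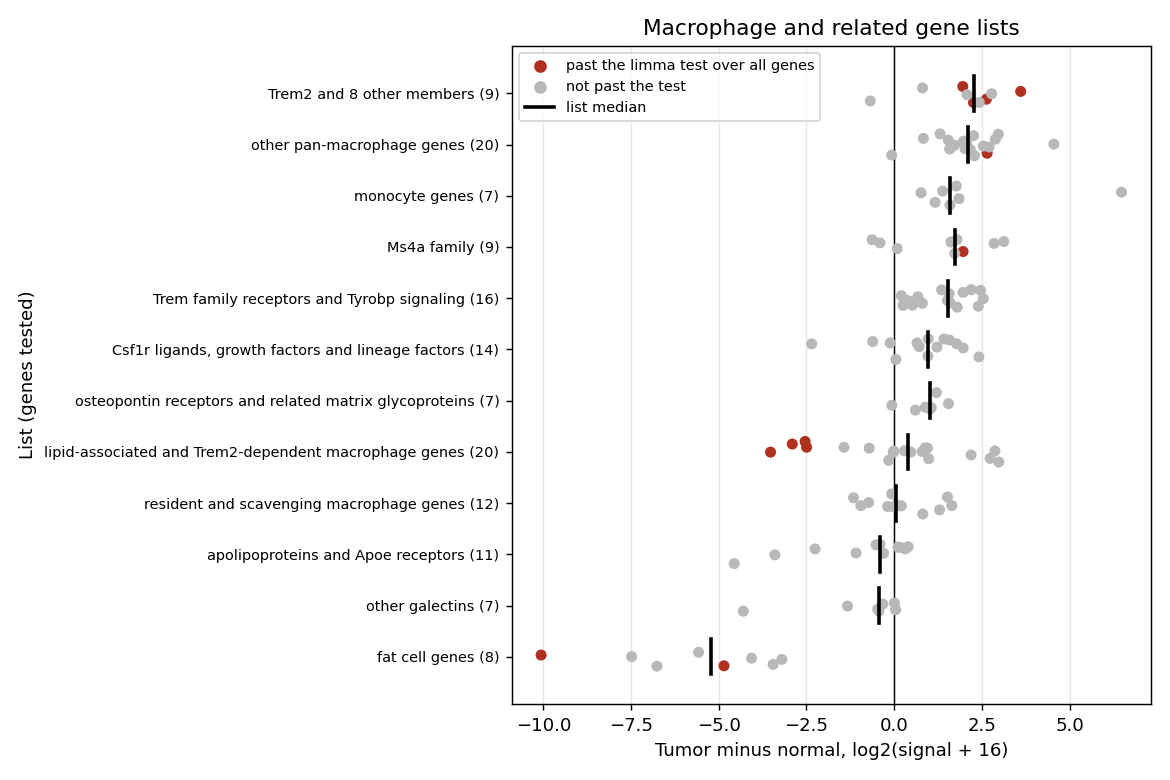
Tumor minus normal difference, log2(signal + 16), of each tested gene in 12 lists, with the number tested in parentheses, list medians as black bars and genes past the limma test in red. Pan-macrophage genes lie mostly around their median of 2.10, lipid-associated genes spread on both sides of 0, and fat cell genes lie below 0.

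Partners of Apoe, Lgals3 and Spp1 showed other patterns. Of 11 apolipoproteins and receptors of Apoe, 0 were higher in both tumors and 6 were lower in both (29.4% and 27.7% of all genes), with a median of -0.40. Of the 11, 0 passed the limma test, with 2 at an unadjusted p under 0.05, a smaller share than the 21.5% of all genes. Apoc1, a small apolipoprotein encoded beside Apoe, gave 8400 and 9794 in normal ureter against 665 and 202 in tumor, a difference of -4.56 (SE 0.60, n = 2 in each group, limma adjusted p = 0.063). Apoa1 had -3.40, and the receptors Sorl1 and Scarb1 had -0.30 and -0.51. The 2 other bright probe sets of Sorl1 had -0.15 and 0.11. A list of 7 tested genes held galectins other than Lgals3 and also Lgals3bp, a galectin-3-binding protein that is not itself a galectin. Of the 7, 0 were higher in both tumors and 4 lower in both (29.4% and 27.7% of all genes), with a median of -0.43. None of the 7 passed the limma test, and 2 had an unadjusted p under 0.05, near the 21.5% of all genes. Lgals12, the galectin of fat cells, had -4.30, Lgals4 -1.33, Lgals1, the brightest, -0.47 and Lgals2 -0.43. Of 7 receptors that bind osteopontin, 4 were higher in both tumors (29.4% of all genes), with a median of 1.03, and 0 passed the limma test, with 2 at an unadjusted p under 0.05, again near the 21.5% of all genes. Itgav, the alpha chain of the vitronectin receptor, gave 4637 and 4700 in normal ureter against 12344 and 15201 in tumor (difference 1.55, limma adjusted p = 0.0607), and Itgb1, Itga4 and Itgb5 had 0.61, 1.06 and 0.89.

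Several members are also expressed by osteoclasts, the bone-resorbing relatives of macrophages, and other cell types were checked as well. Of 6 tested osteoclast genes 1 rose, 0 fell and 5 did not pass, with a median of 0.49, where 0.491% of all genes rose and 0.943% fell. Atp6v0d2, a proton pump subunit of osteoclasts and macrophages, rose by 3.36 (SE 0.36, n = 2 in each group, limma adjusted p = 0.0487), a call lost with median centring, no intensity trend, no filter, the mean of its probe sets, or without normal replicate 1 or normal replicate 2. Ctsk had 1.83, Nfatc1 0.78 and Acp5, the brightest, -1.61, and the defining genes Calcr, Ocstamp, Dcstamp and Oscar were under the filter. Urothelial genes were present on the normal arrays, and the apical genes Upk3a, Krt20 and Upk1b fell, with differences of -6.76, -4.93 and -5.66 (limma adjusted p = 0.0369, 0.0420 and 0.0425), 3 of 14, where 0.943% of all genes fell. Of the 14, 7 were lower and 2 higher in both tumors (27.7% and 29.4% of all genes). The general epithelial genes Epcam and Cdh1 were the 2 higher, with differences of 1.82 and 0.85, neither past the test (limma adjusted p = 0.0961 and 0.174). The basal genes Krt5 and Trp63, named after their values were seen, were above both normal arrays in tumor replicate 1 and below them in tumor replicate 2. Of 8 smooth muscle genes 7 were lower in both tumors (27.7% of all genes), with a median of -1.26, and 1 fell: Myh11, the smooth muscle myosin, fell by 3.37 (limma adjusted p = 0.0402), from 7397 and 5091 to 607 and 556. Of 7 fibroblast genes 4 were higher in both tumors (29.4% of all genes), with a median of 0.82. Of 6 endothelial genes 1 was lower in both, a smaller share than the 27.7% of all genes, with a median of -0.24. Both lists had 0 genes past the threshold in the limma fit. Limma p-values below 0.05 before adjustment belonged to 2 fibroblast genes and 1 endothelial gene, beside 21.5% of all genes. Without normal replicate 1 or normal replicate 2 no gene of these lists passed. Summed signals were higher in both tumors for 7 neutrophil genes (388 and 288 on the normal, 11523 and 1198 on the tumor arrays). They were also higher for 6 B and plasma cell genes (18913 and 15533, then 87220 and 58502). Most of the normal sums of the latter was Xbp1, with overlapping groups (17483 and 14310, then 28859 and 17034). In that list Jchain, the joining chain of secreted antibodies, rose by 5.31 (limma adjusted p = 0.0288), from 1132 and 967 to 47124 and 37701. For 6 mast cell genes the sums were 560 and 446 in normal ureter against 66033 and 617 in tumor, for 6 T cell genes 511 and 426 against 1483 and 468, and for 7 dendritic cell genes 1380 and 1086 against 2117 and 1449. For 8 kidney tubule genes the sums were 11915 and 18235 in normal ureter against 1554 and 104528 in tumor. For the 20 pan-macrophage genes they were 19833 and 16225 in normal ureter against 83292 and 61113 in tumor. No marker in these lists had a signal of exactly 0. The part of these other cells in the members' values was not tested.

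The genes nearest to Trem2 in pattern were ranked by the root mean square difference of log2(signal + 16) over the 4 arrays, each gene centred on its own mean. Il10ra, the interleukin-10 receptor chain of immune cells, was nearest at 0.13, with 2.84 and 6.63 in normal ureter against 278 and 205 in tumor. Next were Hs6st2, a heparan sulfate sulfotransferase, at 0.19, Pik3ap1, an adaptor of B cells and macrophages, at 0.19, and F2r, the thrombin receptor, at 0.20. Nfkbie, an inhibitor of NF-kappaB, Emb, a cell adhesion glycoprotein, Tagln2, an actin-binding protein, and Fxyd4, an ion pump regulator, followed at 0.23 to 0.31. Among the members Ms4a7 was nearest to Trem2 at 0.52 and Apoe farthest at 2.15. With 4 arrays this likeness is mostly the size of the tumor difference, and it is a description. The size of the Trem2 difference follows the pseudocount, and the ranking was made with 16 only. Il10ra, like Trem2, lay under the filter on both normal arrays.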

How the data were processed

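The samples were 2 normal ureters and 2 ureter tumors, 1 array each. The deposited values are intensity values, MAS5 signals per the submitters' processing notes (the sources used here give no version). The signals had a mean of 500 per array after 2% of the probe sets were trimmed. Of 45101 probe sets, 64 were controls, 34945 had 1 gene symbol in the platform annotation, 932 several and 9160 none, and 34754 symbols were matched to the RefSeq gene table of GRCm38.p6. The brightest probe set was read for each of 18193 genes.

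Signals were taken as log2(signal + 16), with no further scaling. The filter kept 13046 genes whose mean log2 value reached the 40th percentile, that of a signal of 54.6. They were tested in R 4.3.3 using limma 3.58.1, a prior variance that follows intensity, and Benjamini-Hochberg adjustment at 0.05. An exact permutation test of 2 against 2 arrays cannot give a p under 0.333. The number of arrays limits the precision.

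Members and gene lists were chosen with earlier results of these data known. Genes to be named were all members, from each list up to 4 genes with the smallest p and the brightest, and the 8 genes nearest to Trem2. For the lists of other cell types not all of these genes are named. Other named genes were chosen after their values were seen and are named as such, or are the untested and defining genes of a list. Alternatives were other pseudocounts, scalings, filters, probe set rules and prior variances, a replicate block, and each array left out.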

Additional observations from a re-analysis of the deposited data

How the results depend on the processing

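The count of genes past the test was 187, 35 with median centring, 117 with the mean of probe sets and 2 with no intensity trend, and it ran from 0 to 5502 when 1 array was left out, with 884 and 889 at an unadjusted p under 0.05 where it was 0. The count of members, 4, was 0 with median centring, 2 with no filter, 2 with the mean of probe sets, 0 with no intensity trend and 0 to 9 with 1 array left out. The count over all lists, 14, was 4 with median centring, 1 with no intensity trend and 0 to 154 with 1 array left out. The pan-macrophage count, 1, was 3 with a pseudocount of 64, 2 with quantile normalization, 3 with a filter at the 60th percentile, 0 with median centring or no intensity trend, and 0 to 20 with 1 array left out. The lipid-associated count, 4, was 1 with median centring, 0 with no intensity trend and 0 to 16 with 1 array left out. The median difference of the members, 2.26, was 2.46 with median centring, 1.94 with the mean of probe sets and 2.04 to 2.30 with 1 array left out. Median centring moved the median of all genes from 0.03 to 0.22. With the replicate number as a block, 0 genes, 0 members and 0 list genes passed in limma, with 2253 genes at an unadjusted p under 0.05. Samples with the same number did not deviate together (r = 0.04), and the number is not known to pair them. Signs turned for Selenop (0.0912 with quantile normalization, 0.12 with median centring), for Krt7 (-1.44 to 0.0875 with 1 array left out, the latter without tumor replicate 2) and for 4 list medians: melanocyte, 1 gene, -0.80 to 0.18 (highest without normal replicate 2), and, with the first value without tumor replicate 1 and the second without tumor replicate 2, resident -0.21 and 0.61, mast cell -0.44 and 4.9996, and kidney tubule 2.52 and -4.15. Over 1022 comparisons of 74 genes with an alternative, 795 kept direction and side of the threshold, 130 lost the call, 94 gained it and 3 turned sign. The cause of these shifts was not tested. Signals under the filter, as for Trem2 in normal ureter, limit how far a fold can be read.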
